A study of Mus musculus with 8 samples.

Results

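Several genes of steroid synthesis were followed through 8 ATAC-seq peak lists of mouse granulosa cells, the follicle cells that feed and surround the oocyte. The 10 genes were Star, Cyp11a1, Fdx1, Hsd3b1, Cyp17a1, Cyp19a1, Hsd17b1, Hsd17b7, Sult1e1 and Akr1c18, out of 21627 protein-coding genes of the annotation. They were chosen by name, and every accessible interval that overlapped a gene body (GRCm38.p6) or the 50 kb on either side was counted as belonging to it. At Star and at Akr1c18, the interval over one end of the gene was held in the LH experiment by both hCG libraries. Neither library from mice without hCG held it. In lists cut to the same length by fold, this difference was kept at Akr1c18 and lost at Star. At Cyp19a1, a strong interval upstream of the outermost start was held by both PMSG libraries and by neither hCG library of the same experiment. It was also held by 2 of the 4 hCG-treated libraries of the other experiment. In full lists, the window of Cyp19a1 held 4 regions found in both hCG and neither PMSG library, and 2 of the reverse kind. Over the 10 genes, 19.2% of regions were of the first kind and 11.2% of the reverse, beside 17.7% and 10.4% of all regions. Between wild-type and progesterone receptor knockout libraries, 1 of the 10 annotated starts of these genes differed in presence, at Cyp11a1, where the WT intervals reached a few bases further.

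Steroid synthesis begins when STAR moves cholesterol into the mitochondrion, where CYP11A1, fed with electrons by ferredoxin (FDX1), cuts off the side chain to give pregnenolone. HSD3B1 turns pregnenolone into progesterone, CYP17A1 makes androgens, chiefly in theca cells, and CYP19A1 (aromatase) and HSD17B1 turn androgens into oestradiol in granulosa cells. The surge of luteinising hormone (LH) is known to shift granulosa cells from oestradiol to progesterone output, with the rise of Star and Cyp11a1 and the fall of Cyp19a1 transcripts as textbook marks of luteinisation. HSD17B7 also works in cholesterol synthesis, SULT1E1 inactivates oestrogens by sulfation, and AKR1C18 inactivates progesterone.

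ATAC-seq uses the Tn5 transposase to cut and tag open chromatin. All mice were 21 days old and were given 5 IU of eCG, the equine gonadotropin that drives follicle growth and that the titles call PMSG, and were kept for 46 h. The LH experiment used wild-type CBA x C57BL/6 F1 mice: 2 libraries titled PMSG were taken from mice killed at that point, and 2 titled hCG from mice given 5 IU of hCG (human chorionic gonadotropin, a stand-in for the LH surge) and killed 6 h later. The time tags of these 4 libraries say the reverse (0 h for those titled hCG and 6 h for those titled PMSG), so directions are given by sample title, and the source names point the same way. The PR experiment used the strain C.129S7(B6)-Pgrtm1Bwo/OmcJ, with 2 wild-type (WT) and 2 PR knockout (KO) libraries, all tagged 6 h after hCG although their source name is pre-ovulatory. The knockout is a germline allele, so it was present in every cell type of the animal and before the hormones were given. Each replicate pooled cells of 2 to 3 mice, recovered by puncturing the ovaries. The experiments differ in strain and in the form of the deposited peak names, so values across them are set side by side only.

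The lists held between 55654 (KO replicate 2) and 84313 (WT replicate 2) intervals on chromosomes 1 to 19 and X. They hold no read numbers, so the depth is unknown. KO lists were shorter than WT lists, and PMSG lists shorter than hCG lists, which touches every presence call below. Counts over all 10 genes are therefore also given in equal-length lists, cut to the 55654 best intervals of each library by fold or by −log10 q. Regions and covered lengths at single genes are those of the full lists unless an equal-length list is named. At Pgr itself the interval at the annotated start was 1277 and 1270 bp wide in the KO libraries and 2301 and 2206 bp in the WT libraries. An interval at a start does not measure the transcript, so this does not check the knockout. Of 8 granulosa markers with an annotated start, 5 to 6 per library had it in an interval. Those of Foxl2, Fshr, Esr2, Gja1 and Lhcgr were in one in all 8 libraries. The starts of Inha and Nr5a2 were in no interval of any library, although an end of Inha lay in one in all 8. Starts of oocyte markers were in an interval in 0 of 4 cases in every library, although an end of Gdf9, which has no annotated start here, lay in one in all 8. Of 4 leukocyte starts, Ptprc, Itgam and Cd3e were in none, and Cd68 was in 1 in both hCG libraries only.

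Pairs of values below are for replicate 1 and then replicate 2 of a group. Fold is the authors' enrichment of an interval over local background within its own library, on a linear scale. It describes and ranks intervals within a list and is no level between lists. With 2 libraries against 2, an exact two-sided permutation test cannot give a p below 0.333, so no single interval was tested. A region is called group-only where both libraries of one group held it and neither of the other did. Such counts are read beside the share of all regions with the same call, which in the full LH lists was 17.7% hCG-only and 10.4% PMSG-only of 81943.

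Annotated starts were given by RefSeq (GRCm38.p6) for 7 of the 10 genes, 10 starts in all. Star, Cyp17a1 and Hsd17b1 were matched to no start, and both ends of these genes were used. The 6 windows shown are those on which the comparisons at gene starts turn, each from 250 bases before to 50 bases after the start, in the direction of the gene. Akr1c18 is the start with an hCG-only interval. Cyp19a1 start 2 is one of the starts in no interval, and Cyp19a1 start 3 one of those held by 7 of 8 libraries. Cyp11a1 start 1 is the start at which only WT intervals reached the first base, and Fdx1 and Hsd17b7 are the starts held by every library.
Akr1c18, chr13:4150597-4150896, minus strand: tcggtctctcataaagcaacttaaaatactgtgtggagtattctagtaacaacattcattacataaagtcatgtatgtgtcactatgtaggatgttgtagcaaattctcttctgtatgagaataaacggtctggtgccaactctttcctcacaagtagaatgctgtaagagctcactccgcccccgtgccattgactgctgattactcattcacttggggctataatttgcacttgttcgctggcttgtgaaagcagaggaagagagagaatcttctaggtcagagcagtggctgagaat
Cyp19a1 start 3, chr9:54193694-54193993, minus strand: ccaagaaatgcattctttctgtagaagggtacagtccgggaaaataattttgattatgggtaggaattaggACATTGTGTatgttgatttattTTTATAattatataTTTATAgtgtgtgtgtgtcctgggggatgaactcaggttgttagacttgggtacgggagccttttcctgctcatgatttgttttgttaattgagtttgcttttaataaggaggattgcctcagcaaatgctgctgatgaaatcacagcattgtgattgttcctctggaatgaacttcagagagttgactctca
Cyp19a1 start 2, chr9:54228865-54229164, minus strand: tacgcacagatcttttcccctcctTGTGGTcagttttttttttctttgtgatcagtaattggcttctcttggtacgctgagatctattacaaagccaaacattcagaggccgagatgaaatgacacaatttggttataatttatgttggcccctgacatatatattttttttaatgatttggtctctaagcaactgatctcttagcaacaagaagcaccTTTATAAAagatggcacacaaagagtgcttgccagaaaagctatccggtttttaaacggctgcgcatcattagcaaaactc
Cyp11a1 start 1, chr9:57997774-57998073, plus strand: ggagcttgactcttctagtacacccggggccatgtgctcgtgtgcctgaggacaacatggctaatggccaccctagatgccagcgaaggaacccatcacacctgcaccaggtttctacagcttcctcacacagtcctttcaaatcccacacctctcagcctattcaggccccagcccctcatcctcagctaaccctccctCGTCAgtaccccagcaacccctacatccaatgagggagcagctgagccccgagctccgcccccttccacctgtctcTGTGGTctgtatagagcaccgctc
Fdx1, chr9:51963553-51963852, minus strand: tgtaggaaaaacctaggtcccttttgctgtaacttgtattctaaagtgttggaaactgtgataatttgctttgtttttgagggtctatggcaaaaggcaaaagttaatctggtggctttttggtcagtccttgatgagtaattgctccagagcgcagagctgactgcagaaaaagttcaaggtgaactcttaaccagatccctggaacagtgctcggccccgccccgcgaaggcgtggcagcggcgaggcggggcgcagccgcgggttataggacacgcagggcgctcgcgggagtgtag
Hsd17b7, chr1:169969156-169969455, minus strand: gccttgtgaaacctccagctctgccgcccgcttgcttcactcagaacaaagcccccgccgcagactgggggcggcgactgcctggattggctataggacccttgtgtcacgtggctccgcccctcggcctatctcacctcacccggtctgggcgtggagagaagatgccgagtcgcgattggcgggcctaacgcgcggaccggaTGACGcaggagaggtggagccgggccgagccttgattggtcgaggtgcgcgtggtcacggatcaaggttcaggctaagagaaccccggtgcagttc
Capitals mark matches, on either strand, to 8 short motifs. The motif of the NR5A receptors was spelled AAGGTCA and that of the cyclic AMP response was its core TGACG. The element for the AP-1 factors was TGANTCA, the one for RUNX factors was TGTGGT and the one for GATA factors was AGATAA. For steroid receptors of the progesterone receptor type it was ACANNNTGT, for forkhead factors it was TGTTTAC, and the box that binds the basal machinery was TATAAA. At Cyp19a1 start 2 the TATA motif lay 29 bases before the start and overlapped a match on the opposite strand at 31 bases before it, and the RUNX motif lay 226 bases before. At Cyp19a1 start 3 the progesterone receptor type motif lay 179 bases before the start, and the TATA motif, on the opposite strand, 157 and 143 bases before. Cyp11a1 start 1 had the cyclic AMP motif on the opposite strand 50 bases before the start and the RUNX motif 26 bases after it, and Hsd17b7 had the cyclic AMP motif 46 bases before. Akr1c18 and Fdx1 matched none of the 8 motifs in this window. Of 21044 promoter windows of the same length, 23.8% held the cyclic AMP motif, 14.8% the RUNX, 12.7% the TATA, 9.68% the GATA, 7.04% the AP-1, 6.03% the progesterone receptor type, 4.06% the NR5A and 3.03% the forkhead motif. A match is a match of letters only. The G and C content was 37.7% at Cyp19a1 start 3, 42.3% at Akr1c18, 52.0% at Fdx1, 58.3% at Cyp11a1 start 1 and 64.7% at Hsd17b7, beside a median of 56.7% over all windows.

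Star (chr8:25808474-25815982) codes for the protein that carries cholesterol to the inner mitochondrial membrane, the step that sets the rate of steroid output. An interval of 404 and 499 bp lay over its lower-coordinate end in the hCG libraries, with folds of 3.98 and 3.96. Neither PMSG library held an interval there, and the nearest lay 1876 and 1904 bp away. The WT libraries held one of 278 and 334 bp (folds 3.25 and 3.81) and the KO libraries one of 227 and 251 bp (folds 2.78 and 4.14). The interval was thus in every library but the PMSG ones, and it was wider in both hCG libraries than in all 4 PR libraries. It was a weak interval, with a fold under the 55654-interval limit in 5 of the 6 lists that held it. The call held in lists of equal length by −log10 q (values of 70.0 and 72.4 in the hCG libraries) and was lost in those by fold.

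Other hCG-only regions, 4 in number, surrounded Star, and no PMSG-only region did, of 11 regions in the window. The region with the best ranks lay 48.3 kb below the gene (chr8:25759971-25760209, folds 8.35 and 7.35) and was also held by both WT and neither KO library. Its WT folds of 5.40 and 5.95 fell under the limits of the equal-length lists by fold. Those at 8.14 kb (chr8:25799769-25800336, folds 7.67 and 7.06) and 11.2 kb below the gene (chr8:25796984-25797237, folds 4.56 and 4.82) lie inside the neighbour Lsm1. Both were held by all 4 PR libraries. The last lay inside Star, 2.00 kb from its higher-coordinate end, and was held by every PR library but KO replicate 1. The window also holds Bag4, Ash2l and Kcnu1, so a region in it cannot be assigned to Star from position alone.

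The interval nearest to Star in all 8 libraries ranked the other way. It lay 1.79 kb below the gene (chr8:25805918-25806689). Its fold was 7.58 and 6.98 in the hCG libraries, 15.6 and 14.4 in the PMSG libraries, 10.2 and 10.3 in WT and 9.33 and 9.67 in KO. Ranked in equal-length lists, where 100 is the highest fold, it stood at 33.6 and 24.9 in the hCG and at 86.7 and 79.7 in the PMSG libraries. The interval 3.03 kb above the gene, inside Ash2l (chr8:25819014-25819891), ranked 37.2 and 27.1 against 84.5 and 90.7. At both regions the ranks of the hCG libraries lay below those of the PMSG libraries without overlap. Of all regions held by the 4 LH libraries, 45.5% ranked higher by fold in both PMSG and 27.8% in both hCG libraries. By −log10 q, 2 of 4 such regions at Star ranked higher in hCG and 2 in PMSG.

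**Figure D1:**
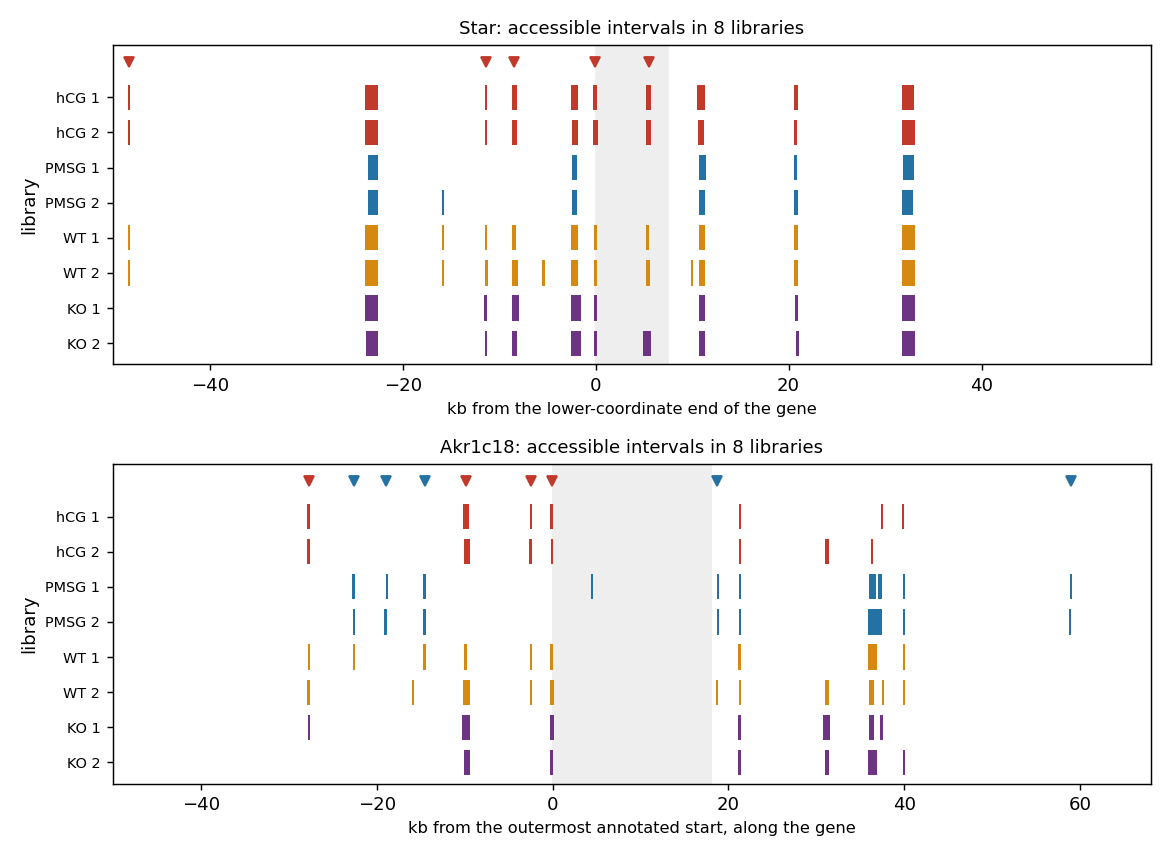
Accessible intervals in each of the 8 libraries (rows) within 50 kb of Star and of Akr1c18, against distance in kb; the grey band is the gene body, and intervals under 0.25 kb are drawn 0.25 kb wide. Red triangles mark the 5 and 4 hCG-only regions and blue triangles the 5 PMSG-only regions of Akr1c18; the interval at 0 kb is missing from both PMSG rows at both genes.

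Akr1c18 (chr13:4132615-4150646, minus strand) codes for 20-alpha-hydroxysteroid dehydrogenase, the enzyme that clears progesterone and is best known from the regressing corpus luteum. The interval over its start was 349 and 236 bp wide in the hCG libraries, with folds of 9.90 and 8.89. Neither PMSG library held it, and their nearest intervals lay 4398 and 14425 bp away. It was present in WT (320 and 504 bp, folds 12.2 and 14.5) and in KO (467 and 280 bp, folds 11.8 and 9.91). WT and KO overlapped in width, and in rank in both kinds of equal-length list. By fold rank in full lists both WT libraries were higher. The call held in equal-length lists by fold, where the interval ranked 57.7 and 45.7 in the hCG libraries, and by −log10 q. Of 21044 annotated starts, 1.36% had an hCG-only and 0.233% a PMSG-only interval. Over both ends of all coding genes the hCG-only share was 0.936%, and Star and Akr1c18 made 2 of the 20 ends of the 10 genes.

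Akr1c18 had the most group-only regions of the 10 genes, with 4 hCG-only and 5 PMSG-only of 14. Its other hCG-only regions all lay upstream of the start. They were centred 2.49 kb (chr13:4152943-4153338, folds 6.51 and 7.62), 9.80 kb (chr13:4160076-4160816, folds 9.49 and 12.4) and 27.8 kb upstream (chr13:4178242-4178563, folds 6.58 and 9.37). The first was held by both WT and neither KO library, the second by all 4 PR libraries and the last by all but KO replicate 2. The WT folds of the first, 4.70 and 5.90, fell under the limits of the equal-length lists by fold. Of the PMSG-only regions, those 14.6, 19.0 and 22.6 kb upstream lay between the hCG-only ones. Folds in these 3 ranged from 3.42 to 7.29 in the PMSG libraries. Neither KO library held any of the 5 PMSG-only regions, and 2 of the 5 were in no PR library. Over all PMSG-only regions of the genome, KO replicate 1 held 21.5% and KO replicate 2 held 34.7%, and 19.4% were in no PR library. Akr1c14 and Akr1c13, which resemble Akr1c18 in sequence, lie in the same window, and how reads of near-identical copies were placed is not given in the sources used here.

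Cyp11a1 (chr9:57998024-58027031, plus strand) codes for the side-chain cleavage enzyme that commits cholesterol to steroids. A broad interval just inside the gene was held by all 8 libraries. It was 1221 and 1205 bp wide in the hCG libraries, 1223 and 1165 in PMSG, 1186 and 1257 in WT and 1336 and 1179 in KO. Folds were 9.06 and 9.72 in hCG, 9.31 and 10.3 in PMSG, 10.2 and 10.7 in WT and 7.98 and 8.58 in KO. In width and in fold rank, hCG and PMSG overlapped (ranks of 49.6 and 53.9 against 48.5 and 53.4). The first base of start 1 lay under the WT intervals only, which began 25 bp before it, while the other 6 began 17 to 34 bp after it. Over all annotated starts, 0.775% were in an interval of both WT and neither KO library, and 0.0333% the reverse.

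Start 2 of Cyp11a1, further into the gene, lay in a weak interval of 150 to 447 bp in all libraries but PMSG replicate 1. Folds there were 2.53 and 2.53 in hCG, 3.31 in PMSG replicate 2, 3.04 and 3.57 in WT and 3.20 and 3.87 in KO. Of 19 regions in the window, 12 were held by all 4 LH libraries. The single hCG-only region (chr9:57972000-57972684, folds 6.62 and 7.20) lay 25.3 kb below the gene and was held by all 4 PR libraries. The PMSG-only regions lay 30.7 kb below (chr9:57966624-57967372, folds 6.87 and 5.92) and 11.6 kb above the gene (chr9:58038607-58038761, folds 6.67 and 5.84). The bases under intervals in the window numbered 10006 and 10003 in hCG and 6790 and 7161 in PMSG. Such bases were more in both hCG libraries in 81.3% of all gene windows. In equal-length lists by fold those at Cyp11a1 numbered 6371 and 6514 in hCG and 6356 and 6040 in PMSG.

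Fdx1 (chr9:51943023-51963602, minus strand) codes for ferredoxin, which passes electrons to CYP11A1. It had no other coding gene in its window, and in full lists no group-only region among 16 in the LH or 19 in the PR experiment. It had 3 PMSG-only and 2 KO-only regions in equal-length lists by fold, and by −log10 q 1 hCG-only, 1 PMSG-only and 1 KO-only. The interval over its start was 1652 and 1593 bp wide in hCG, 1284 and 1286 in PMSG, 1610 and 1645 in WT and 1499 and 1614 in KO. Folds were 5.93 and 6.16 in hCG, 10.2 and 10.4 in PMSG, 7.86 and 7.55 in WT and 6.41 and 7.31 in KO. The hCG intervals were wider than the PMSG intervals and lower in fold rank (12.4 and 15.0 against 56.1 and 54.5), with no overlap in either measure. WT and KO overlapped in rank in equal-length lists by fold (30.4 and 20.7 against 25.9 and 46.1).

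Hsd17b7 (chr1:169949535-169969242, minus strand) codes for an enzyme that reduces oestrone and also acts in cholesterol synthesis. Its start lay under the strongest start interval of the 10 genes. Widths were 926 and 943 bp in hCG, 786 and 733 in PMSG, 945 and 930 in WT and 946 and 855 in KO. Folds were 13.9 and 14.0 in hCG, 19.3 and 19.1 in PMSG, 14.7 and 16.0 in WT and 13.2 and 14.7 in KO. As at Fdx1, the hCG intervals were wider and lower in fold rank (87.0 and 87.1 against 97.6 and 96.2). By −log10 q the ranks overlapped (98.0 and 98.0 against 98.4 and 98.0), and its single PMSG-only region lay inside the gene (chr1:169962332-169962633, folds 6.40 and 10.3).

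These directions at starts were the common ones. Of the 11587 starts held by all 4 LH libraries, 83.7% were wider in both hCG libraries and 2.30% wider in both PMSG libraries. In equal-length lists, 63.3% of 11252 starts ranked higher by fold in both PMSG libraries and 10.7% in both hCG libraries. Of the 7 genes with annotated starts, 5 in each hCG library had a start in an interval, 3 and 4 in the PMSG, 5 and 4 in the WT and 5 in each KO library, beside 60.5%, 60.2%, 59.2%, 59.1%, 61.1%, 60.8%, 59.9% and 58.5% of all genes in the same order. Among the genes, 3 starts were held by all 4 LH libraries: Fdx1, Hsd17b7 and Cyp19a1 start 3. All 3 ranked higher in PMSG, and the first 2 were wider in hCG. At no start of the 10 genes held by all 4 PR libraries did WT and KO separate in width (29.8% of starts wider in WT, 5.64% in KO). Nor did they separate in fold rank in equal-length lists by fold (4.24% and 22.9%). By fold rank in full lists, the starts of Fdx1 and Akr1c18 ranked higher in both WT libraries. By −log10 q rank in equal-length lists, Cyp11a1 start 2 ranked higher in both KO libraries.

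**Figure D2:**
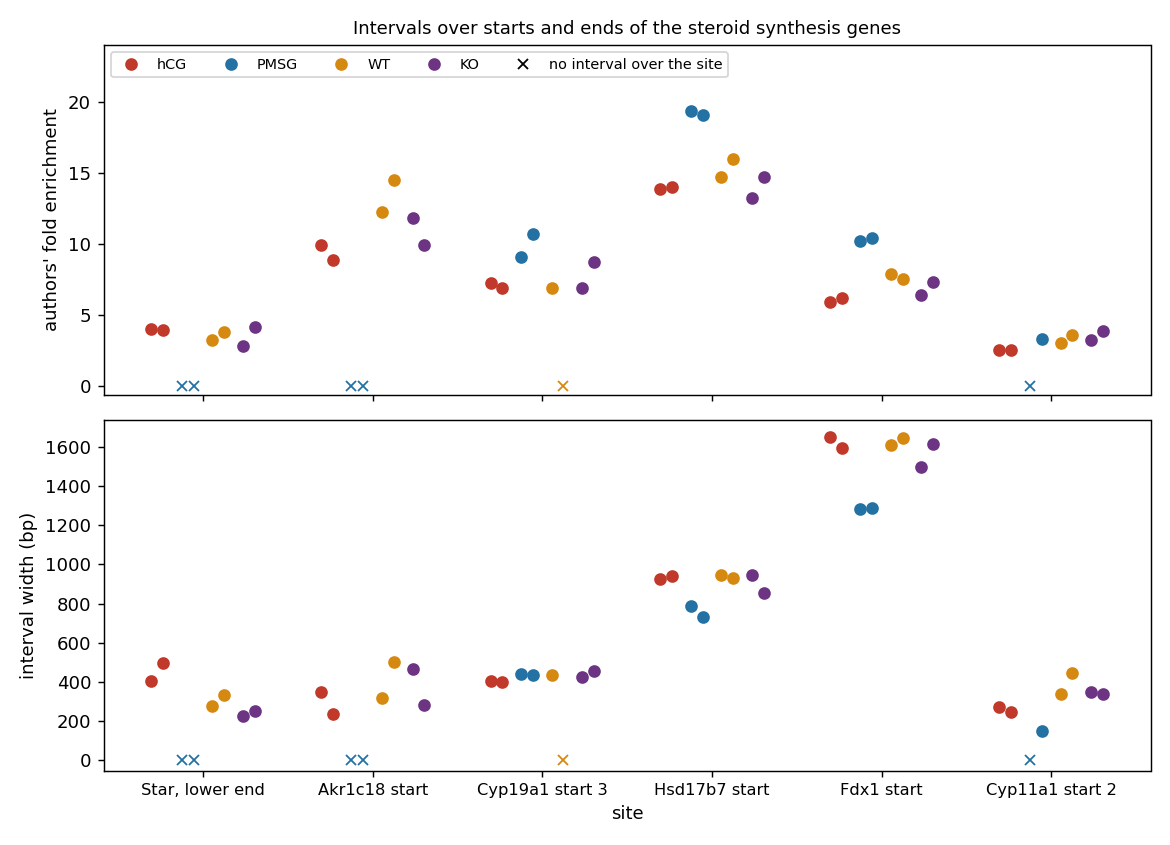
Authors' fold enrichment (top) and interval width in bp (bottom) at 6 sites, 1 point per library, coloured by group; a cross at 0 marks a library with no interval over the site. Both PMSG libraries have a cross at Star and at Akr1c18, and both PMSG points lie above both hCG points in fold at Cyp19a1 start 3, Hsd17b7 and Fdx1. Fold is no level between libraries.

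Cyp19a1 (chr9:54165937-54268164, minus strand) codes for aromatase, which makes oestrogens and marks the granulosa cell before the LH surge. Of its 3 annotated starts, the outer 2 lay in no interval of any library, at 7816 to 18041 bp and at 882 to 1020 bp from the nearest. Start 3, the innermost, lay in an interval of 403 and 402 bp in hCG, 440 and 438 bp in PMSG, 438 bp in WT replicate 1 and 425 and 455 bp in KO. In WT replicate 2 an interval of 357 bp ended 6 bp short of it. Folds were 7.23 and 6.89 in hCG, 9.06 and 10.7 in PMSG, 6.91 in WT replicate 1 and 6.92 and 8.70 in KO. This interval was narrower in both hCG than in both PMSG libraries, the rarer direction among starts. It also ranked lower with hCG, at 30.0 and 23.6 against 46.6 and 57.1 by fold and at 55.5 and 48.8 against 73.0 and 76.9 by −log10 q.

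Between starts 2 and 3 lay the strongest intragenic interval of Cyp19a1 (chr9:54204170-54204983). Its fold was 8.51 and 12.0 in hCG, 18.3 and 18.5 in PMSG, 16.0 and 11.6 in WT and 11.6 and 12.8 in KO. Its rank by fold in equal-length lists was 95.7 and 94.9 in PMSG and 44.2 to 91.2 in the other 6 libraries. The PMSG-only region with the best ranks around any of the 10 genes lay upstream of the outermost start, centred 8.23 kb before it (chr9:54275980-54276807). It was 790 and 805 bp wide with folds of 12.0 and 13.4 in PMSG, was also held by WT replicate 1 (fold 10.2) and KO replicate 2 (fold 5.35), and was missing from both hCG libraries, WT replicate 2 and KO replicate 1. A further PMSG-only region inside the gene (chr9:54234570-54234803, folds 9.03 and 9.29) was in no PR library.

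The gene also had 4 hCG-only regions, of 14 in the window. The best ranked lay inside it (chr9:54222287-54222818, folds 6.79 and 8.95) and 39.1 kb above it in the neighbour Gldn (chr9:54307226-54307815, folds 7.66 and 6.79). All 4 were held by WT replicate 2 and KO replicate 1, 3 by WT replicate 1 and none by KO replicate 2. Over all hCG-only regions KO replicate 2 held 44.7%. Of the 3 hCG-only regions by −log10 q, 1 was held by both WT and neither KO library in lists of that length.

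**Figure D3:**
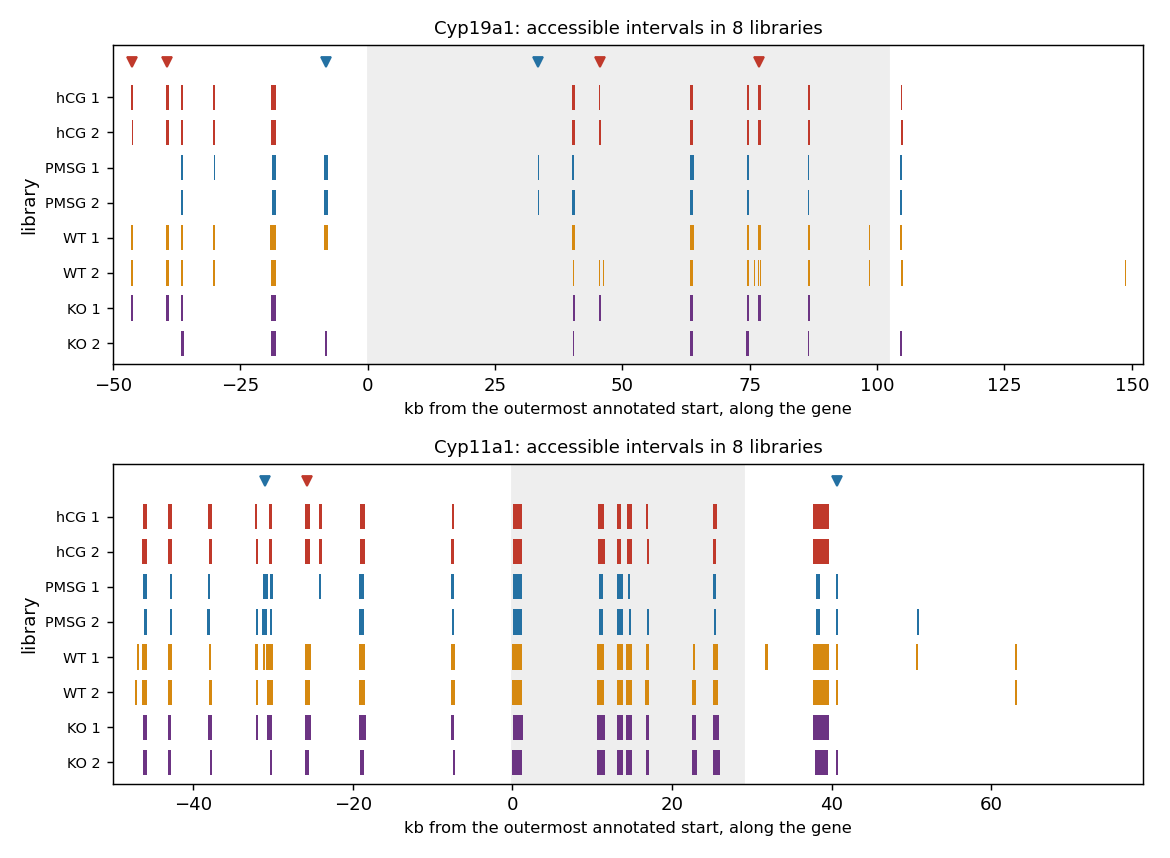
Accessible intervals in each library (rows) within 50 kb of Cyp19a1 and of Cyp11a1, against kb from the outermost annotated start; the grey band is the gene body, triangles mark hCG-only (red) and PMSG-only (blue) regions, and intervals under 0.25 kb are drawn 0.25 kb wide. At Cyp19a1 the PMSG-only region 8.23 kb upstream is seen in WT replicate 1 and KO replicate 2 as well, and at Cyp11a1 12 of 19 regions are shared by all 4 LH libraries.

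Hsd17b1 (chr11:101077968-101081188) codes for the enzyme that turns oestrone into oestradiol. No interval lay over either end, and the nearest began 105 to 907 bp inside the lower-coordinate end. These intervals merged into 1 region (chr11:101078073-101079887), but they were not 1 shared interval. The PMSG intervals, 367 and 423 bp wide, ended at 101078467 and 101078495, and that of hCG replicate 1, 889 bp wide, began at 101078875. Those of hCG replicate 2, WT and KO, 1434 to 1654 bp wide, spanned both places. The strongest summit lay 352 and 359 bp inside the gene in PMSG and 1149 and 1215 bp inside it in hCG. In WT and KO it lay 363 to 386 bp inside. Folds were 2.79 and 2.88 in hCG, 5.21 and 5.78 in PMSG, 3.20 and 3.05 in WT and 2.76 and 4.14 in KO. Both hCG intervals fell under the limit of the equal-length lists by fold, and held 2 and 5 summits. The window holds 7 other coding genes, and its 3 hCG-only regions were weak, with folds of 2.66 to 4.16 in the hCG libraries. It had 0 hCG-only and 4 PMSG-only regions in equal-length lists by fold, and 1 and 1 by −log10 q.

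Hsd3b1 (chr3:98842356-98859794, minus strand) codes for the enzyme that makes progesterone from pregnenolone. Its start lay in no interval of any library, and the nearest was 485 to 1407 bp away. A region inside the gene (chr3:98856932-98858442) was in all 8 libraries, with best folds of 4.93 and 5.08 in hCG, 5.99 and 6.24 in PMSG, 5.06 and 5.91 in WT and 5.22 and 5.94 in KO. A separate weaker interval in its lower-coordinate part was held by hCG replicate 1 (fold 4.31), WT (2.68 and 3.42) and KO (2.24 and 2.66), was merged with the stronger one in hCG replicate 2, and was in neither PMSG library. Of 11 regions, 1 was hCG-only (chr3:98820226-98820494, folds 11.5 and 10.7, nearest to Hsd3b6) and 1 PMSG-only (chr3:98869515-98870354, folds 4.90 and 5.07), with 2 and 2 in equal-length lists by fold and 1 and 4 by −log10 q. The bases under intervals in the window were fewer with hCG, at 4540 and 4742 bp against 6552 and 6419 bp in full lists, but the groups overlapped in equal-length lists by fold (2700 and 4186 against 4558 and 3986 bp). Hsd3b6 in the window resembles Hsd3b1 in sequence, with the same doubt on read placement as at Akr1c18.

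Cyp17a1 (chr19:46667165-46673000) codes for the enzyme that makes androgens, which in the follicle is known from theca cells. One interval inside the gene (chr19:46670426-46671142) was held by all 8 libraries, with folds of 8.33 and 8.66 in hCG, 10.9 and 11.2 in PMSG, 8.09 and 9.32 in WT and 10.5 and 9.38 in KO. The higher-coordinate end lay in an interval of 152 bp in PMSG replicate 2 and of 139 bp in WT replicate 1 only. Of 14 regions, 5 were hCG-only and 1 was PMSG-only, with 2 and 2 in equal-length lists by fold and 3 and 2 by −log10 q. The best ranked hCG-only region (chr19:46628050-46628648, folds 9.29 and 8.93) and the PMSG-only one (chr19:46618996-46619248, folds 7.93 and 7.46) lay in the neighbour Wbp1l. The nearest to the gene was hCG-only, 4.58 kb below it, with folds of 4.04 and 4.42, and was held in the PR experiment by WT replicate 2 alone.

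Starts of some markers of theca and other cell types, and that of the granulosa marker Inhba, were held with hCG and not in PMSG. The Inhba start was in an interval in all libraries but the PMSG ones. Of 5 theca markers with an annotated start, 3 (Aldh1a1, Ptch1, Tcf21) had it in an interval in both hCG libraries and 1 (Aldh1a1) in both PMSG libraries. By either end of the gene, Ptch1 was held in all 8 libraries, and theca counts were 2 in hCG and 1 in PMSG. The starts of Insl3 and Nr2f2 were in no interval of any library. Theca starts numbered 3 in both WT libraries, 3 in KO replicate 1 and 2 in KO replicate 2. Endothelial starts numbered 2 of 3 in every library but PMSG, with 1 of 3 in both. Oocyte starts and the start of the smooth muscle marker Acta2, held by all 8, had the same presence in all groups. The part of other cells in the regions around Cyp17a1 and the other genes was not tested.

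Sult1e1 (chr5:87575968-87591611, minus strand) codes for oestrogen sulfotransferase. Its start lay in no interval, although KO replicate 2 held one 38 bp from it. An interval inside the gene (chr5:87585864-87586517) was in all 8 libraries, with folds of 11.4 and 10.2 in hCG, 11.7 and 9.93 in PMSG, 10.6 and 13.1 in WT and 7.94 and 9.70 in KO. Of 8 regions, 1 was hCG-only (chr5:87588378-87588804, folds 2.87 and 3.07). The PMSG-only regions were centred 6.41 kb upstream of the start (chr5:87597848-87598197, folds 8.10 and 7.28) and 8.88 kb inside the gene (chr5:87582528-87582930, folds 5.10 and 5.97). In equal-length lists it had no hCG-only region and 2 (by fold) or 3 (by −log10 q) PMSG-only ones. Sult1b1 and Sult1d1, of the same gene family, share the window.

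Over all 10 genes, the LH experiment gave 125 regions, of which 24 (19.2%) were hCG-only and 14 (11.2%) PMSG-only. Over all regions of that experiment the shares were 17.7% and 10.4%, and 17.2% and 9.23% within 50 kb of a coding gene. The shares around the 10 genes were thus near the background in both directions. Among the genes, Star, Cyp19a1, Cyp17a1 and Hsd17b1 had more hCG-only than PMSG-only regions, Cyp11a1, Hsd17b7, Sult1e1 and Akr1c18 had fewer, and Hsd3b1 (1 and 1) and Fdx1 (0 and 0) had as many. This order holds for full lists: Cyp19a1 had 3 and 3 in both kinds of equal-length list, and Cyp11a1 had 1 and 4 by fold and 2 and 2 by −log10 q. The 66 regions held by all 4 libraries made 52.8%, beside 49.9% of all regions and 52.0% of those within 50 kb of a coding gene. Of the 66, 64 had a base under an interval of every LH library, and 2, at Hsd17b1 and Akr1c18, did not (3.03%, beside 0.335% of all such regions).

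In equal-length lists the direction turned by fold and was near even by −log10 q. By fold, 14 regions (13.3%) were hCG-only and 25 (23.8%) PMSG-only of 105, beside backgrounds of 15.3% and 13.6%. By −log10 q the counts were 20 (16.9%) and 19 (16.1%) of 118, beside 15.7% and 13.6%. Of the 25 PMSG-only regions by fold, 12 (48%) were held by an hCG library in its full list, as were 23.4% of such regions over the genome. Star had 5 hCG-only and 0 PMSG-only regions in full lists, 2 and 0 by fold, and 5 and 0 by −log10 q. Akr1c18 had 4 hCG-only regions in each of the 3 kinds of list, with 5, 4 and 2 PMSG-only.

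**Figure D4:**
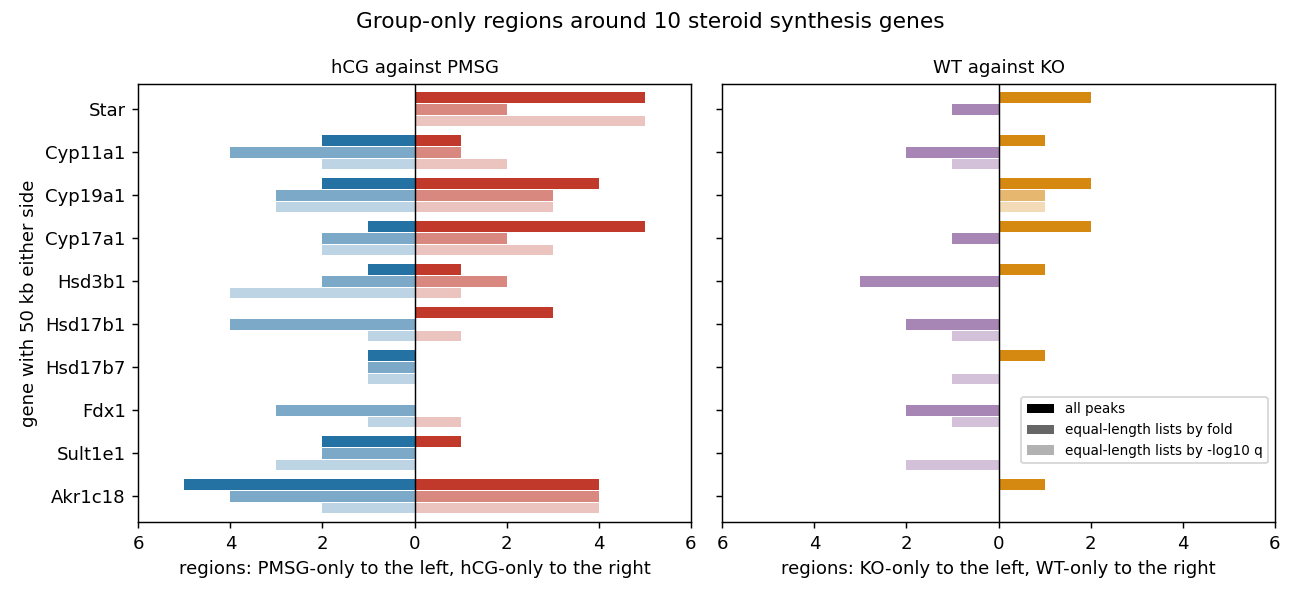
Number of group-only regions around each gene (rows) in full lists (dark) and in equal-length lists by fold (medium) and by −log10 q (light); bars to the right count hCG-only or WT-only regions and bars to the left PMSG-only or KO-only regions. Star keeps hCG-only bars alone in all 3, and every KO-only bar appears in equal-length lists only.

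Regions held by all 4 LH libraries were compared by rank. In equal-length lists by fold, 42 such regions remained, of which 20 (47.6%) ranked higher in both PMSG libraries and 8 (19.0%) in both hCG libraries. Over the genome these shares were 45.5% and 27.8%. At Cyp17a1 4 of 5 and at Star 3 of 5 ranked higher in PMSG, with none higher in hCG. By −log10 q these were 3 higher in PMSG and 2 in hCG of 6 at Cyp17a1, and 2 and 2 of 4 at Star. Over the 10 genes, 26 of 51 (51.0%) ranked higher in PMSG and 15 (29.4%) in hCG, beside 43.2% and 33.2%.

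Covered length is the number of bases under intervals within the window of a gene. It was higher in both hCG libraries at 6 genes (Star, Cyp11a1, Cyp19a1, Cyp17a1, Hsd17b1, Fdx1) and higher in both PMSG libraries at 2 (Hsd3b1 and Akr1c18). Over 18726 gene windows, 81.3% were higher in both hCG and 6.96% in both PMSG libraries. The largest ratio of group means was 1.67 at Cyp17a1 (6711 and 7200 bp against 4132 and 4192 bp), followed by 1.64 at Star (6440 and 6365 bp against 3873 and 3914 bp). The lowest were 0.716 at Hsd3b1 and 0.741 at Akr1c18 (2213 and 2527 bp against 3115 and 3279 bp). The median ratio was 1.29 over the 10 genes and 1.28 over all windows. In equal-length lists by fold it was higher in hCG at 3 genes (Star, Cyp11a1, Cyp17a1) and in PMSG at 2 others, Hsd17b1 and Sult1e1 (background 74.5% and 9.34%), and the median 0.959, beside 1.22 over all windows. By −log10 q it was higher in hCG at 5 genes and in PMSG at 3, Hsd3b1, Sult1e1 and Akr1c18 (76.7% and 9.22%).

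**Figure D5:**
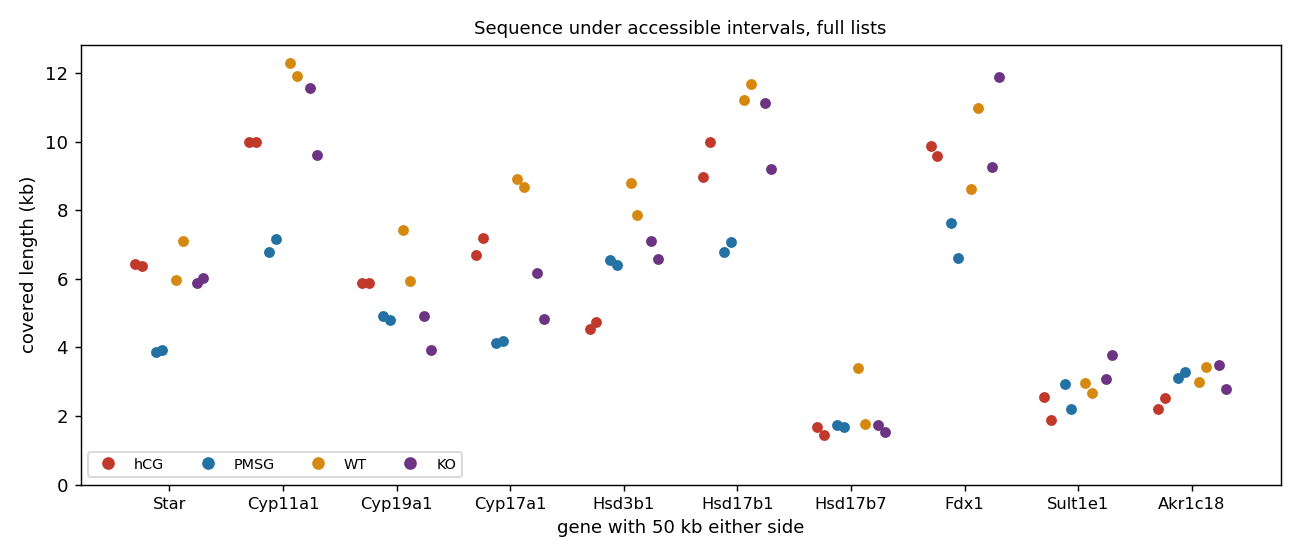
Covered length in kb (vertical axis) within 50 kb of each of the 10 genes in the full lists, 1 point per library, coloured by group. Both hCG points lie above both PMSG points at 6 genes and below them at Hsd3b1 and Akr1c18.

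The PR experiment asked what the loss of the progesterone receptor changes after hCG. Of 150 regions around the 10 genes, 10 (6.67%) were WT-only, beside 12.1% of all 91502 regions, and 0 were KO-only, beside 0.0842%. With 1 PR library left out the WT-only count was 25 (WT replicate 1), 28 (WT replicate 2), 18 (KO replicate 1) or 17 (KO replicate 2). In these counts 1 library stands for its group, so the 12.1% is not their background. The 81 regions held by all 4 PR libraries made 54%, beside 53.3%. Cyp19a1, Star and Cyp17a1 had 2 WT-only regions each, and Cyp11a1, Hsd3b1, Hsd17b7 and Akr1c18 had 1 each. The best ranked lay 30.0 kb above Cyp19a1 in Gldn (chr9:54298143-54298553), with folds of 8.97 and 10.8 in WT. It was also held by both hCG libraries (9.37 and 8.47) and by PMSG replicate 1 (5.42). A WT-only region inside Cyp19a1 (chr9:54169517-54169777, folds 4.16 and 6.94) was in no LH library.

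Of the WT-only regions, 3 coincided with hCG-only regions. They lay 48.3 kb below Star, in Wbp1l 46.4 kb below Cyp17a1 and 2.46 kb upstream of Akr1c18 (chr13:4152988-4153224, folds 4.70 and 5.90 in WT). They made 3 (12.5%) of the 24 hCG-only regions, beside 16.4% of all hCG-only regions of the genome. By −log10 q in equal-length lists it was 1 of 20 (5%), beside 5.55%. A larger number, 9 (37.5%), was in all 4 PR libraries, beside 40.9%, and none was absent from all 4, beside 7.03%. Held in WT replicate 1, WT replicate 2, KO replicate 1 and KO replicate 2 were 20, 23, 17 and 11 of the 24. Over all hCG-only regions of the genome the shares were 79.9%, 91.3%, 63.4% and 44.7%, against 83.3%, 95.8%, 70.8% and 45.8% here. By −log10 q in lists of equal length they were 13, 17, 14 and 11 of 20 (65%, 85%, 70% and 55%), beside 62.3%, 77.5%, 68.8% and 52.2%, and WT and KO overlapped. Of the 14 PMSG-only regions, 10, 6, 2 and 5 were held in the same order (71.4%, 42.9%, 14.3% and 35.7%), beside 76.6%, 45.6%, 21.5% and 34.7% over the genome. They were 10, 6, 8 and 11 of 19 in equal-length lists by −log10 q (52.6%, 31.6%, 42.1% and 57.9%), beside 45.8%, 16.9%, 27.1% and 45.0%, and KO no longer lay below WT.

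The PR counts differed between full and equal-length lists. In equal-length lists by fold, 1 region was WT-only and 11 (10.1%) were KO-only of 109, beside backgrounds of 4.25% and 4.16%. By −log10 q, 1 was WT-only and 6 (5.45%) KO-only of 110, beside 2.78% and 2.50%. All 11 and all 6 were held by a WT library in its full list, as were 97.9% and 97.6% of such regions over the genome. Covered length was higher in both WT libraries at 6 genes and higher in both KO libraries at Sult1e1 alone (backgrounds 65.6% and 0.915%). In equal-length lists by fold it was higher in WT at 1 gene and in KO at 7 (27.9% and 11.5%), and by −log10 q at 1 and 1 (31.2% and 4.85%). The direction between WT and KO around these genes thus depended on how the lists were cut.

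At single genes, the covered length was 7416 and 5929 bp in WT and 4919 and 3913 bp in KO at Cyp19a1. At Cyp17a1 it was 8918 and 8684 bp against 6172 and 4830 bp. The groups overlapped at Cyp19a1 in equal-length lists by −log10 q (6502 and 3345 against 4420 and 3913 bp), and at Cyp17a1 in those by fold (5118 and 4992 against 5827 and 4830 bp). WT stayed higher at Cyp19a1 by fold (6137 and 4471 against 4420 and 3913 bp). It also did so at Cyp17a1 by −log10 q (6137 and 6968 against 5375 and 4830 bp). In full lists the groups overlapped at Star (5967 and 7114 against 5872 and 6043 bp), as they did at Fdx1 (8616 and 10985 against 9278 and 11903 bp) and Akr1c18 (2982 and 3418 against 3496 and 2792 bp). At Sult1e1 the KO values of 3077 and 3793 bp lay above the WT values of 2973 and 2672 bp. KO lay above WT there in both kinds of equal-length list too. Of regions held by all 4 PR libraries and ranked by fold, 17 of 44 (38.6%) were higher in both KO libraries and 1 (2.27%) in both WT libraries, beside 19.9% and 11.0%. By −log10 q these were 8 (11.4%) and 4 (5.71%) of 70, beside 15.8% and 11.3%.

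Other genes of steroid metabolism were taken as a list of 36, of which 34 were matched by name. Around them, 41 of 278 LH regions (14.7%) were hCG-only and 20 (7.19%) PMSG-only, below the 17.7% and 10.4% of all regions. In equal-length lists the counts were 34 (13.3%) and 31 (12.2%) by fold, beside 15.3% and 13.6% of all regions. By −log10 q they were 35 (13.9%) and 26 (10.3%), beside 15.7% and 13.6%. Akr1c14, a 3-alpha-hydroxysteroid dehydrogenase next to Akr1c18, had 2 hCG-only and 5 PMSG-only regions, some of them within the window of Akr1c18. Srd5a1, a steroid 5-alpha-reductase, had 3 and 0. So had the neighbours Cyp11b1 and Cyp11b2, the adrenal 11-beta-hydroxylase and aldosterone synthase, whose windows share the same 3 regions. Hsd17b3, Cyb5a and Hsd17b11 had 3 and 2 each, and Hsd11b2, which inactivates glucocorticoids, had 3 and 1. Hsd17b11 turned to 2 and 4 in both kinds of equal-length list. Hsd11b2 had 1 and 1 by fold and 3 and 3 by −log10 q there, and Hsd17b3 had 2 and 2 by −log10 q. Covered length was higher in both hCG libraries at 27 of the 34 genes and in both PMSG libraries at 2, beside 81.3% and 6.96% of all gene windows. In the PR experiment 29 of 310 regions (9.35%) were WT-only and 1 (0.323%) KO-only, beside 12.1% and 0.0842%. In full lists Hsd17b11 and Hsd11b2 had 5 WT-only regions each and Hsd17b12 had 4. Cut to equal length by fold, the lists gave 5 WT-only and 16 KO-only regions of 241 (2.07% and 6.64%, beside 4.25% and 4.16%), and by −log10 q 4 and 4 (1.66% each, beside 2.78% and 2.50%). There Hsd17b11 and Hsd11b2 had 0 WT-only regions in both kinds of list, and Hsd17b12 had 1 by fold and 0 by −log10 q.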

How the data were processed

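Accessible chromatin was measured by ATAC-seq in 8 libraries of mouse granulosa cells, 2 per group, sequenced as paired reads of 150 bp from fragments of 200 to 600 bp, per the labels' protocols. The authors deposited 1 peak list per library in the 10-column narrowPeak layout. Bowtie2, MACS2 and the build mm10 are named in the submitters' processing notes. Their settings, filters and any shift for the Tn5 cut are not given in the sources used here. Column 7 of the deposited lists was read as fold enrichment, a linear ratio of the authors' peak caller within 1 library. Columns 8 and 9 as deposited by the authors are significance on the −log10 scale, p-values and then q-values, with no listed −log10 q under 10. The score in column 5 repeats column 9 and was not used.

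Libraries were grouped by title. Lines with the same start and end were collapsed to 1 interval, keeping the best fold and −log10 q, on chromosomes 1 to 19 and X. Genes and their ends came from RefSeq (GRCm38.p6), and starts and promoter sequences from a RefSeq table of the same assembly. Intervals of the 4 libraries of an experiment that shared at least 1 bp were merged into regions. Presence, covered length, width and rank were counted for the 10 genes and for all coding genes, regions and starts alike, and no single region was tested. A rank percentile averages ties and was compared between libraries in lists of 55654 intervals, the length of the shortest, and in full lists as an alternative only. The replicates are separate pools of mice, and their number limits the precision. The code that merges intervals and calls group-only regions was checked on simulated lists with planted regions.

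All 10 genes are described. For each, every group-only region was counted and at most 4 per experiment are given with coordinates, best mean fold rank first. Other genes of steroid metabolism are named where they hold 3 or more group-only regions of 1 group. The 10 genes, the marker lists and the pathway list were chosen with earlier results of these data known. Alternatives were equal-length lists, the 20000 best intervals, a −log10 q of at least 20, flanks of 20 and 100 kb, another merge and overlap rule, and each library left out. Python 3.11.15 with pandas 2.3.3, numpy 2.4.6 and matplotlib 3.10.9 was used.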

Additional observations from a re-analysis of the deposited data

How the results depend on the processing

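No paired analysis was possible because the results come from no test, and no label ties a replicate number to a shared mouse pool, day or batch across groups. The lists carry no read numbers, so a missing interval may lie just under the authors' threshold, and list length sets how many regions 1 group alone can hold. Lists cut by −log10 q, and gene ends in place of starts, were chosen after seeing the data. Of the values counted over the 10 genes, 79 outside single left-out libraries stayed within 1.5 times their value in the full lists and 25 did not. The cause was not tested in any case below beyond the way each list is made.

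In equal-length lists by fold the region counts were 14 hCG-only, 25 PMSG-only, 1 WT-only and 11 KO-only. Covered length was higher in hCG at 3 genes, in WT at 1 and in KO at 7. The difference of hCG-only minus PMSG-only regions turned to -4 at Hsd17b1. That of WT-only minus KO-only turned to -1 at Star, -2 at Cyp11a1, -1 at Cyp17a1 and -3 at Hsd3b1. The log2 ratio of covered length, hCG over PMSG, turned to -0.35 at Hsd17b1. WT over KO, it turned to -0.67 at Cyp11a1, -0.076 at Cyp17a1, -1.19 at Hsd3b1 and -0.72 at Hsd17b1. At Star and Akr1c18, where the groups overlapped in full lists (0.13 and 0.025), it was -0.20 and -0.38, with both KO libraries higher. The interval at the end of Star was lost from both hCG lists here, and the interval at Akr1c18 was kept.

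In equal-length lists by −log10 q the counts were 1 WT-only and 6 KO-only, and covered length was higher in WT at 1 gene. Region differences turned to 2 at Akr1c18 (hCG against PMSG) and to -1 at Cyp11a1 and -1 at Hsd17b7 (WT against KO). The log2 ratio of covered length at Hsd17b7 turned to -0.013 (WT over KO).

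Among the 20000 best intervals of each list the region counts were 0 hCG-only, 5 PMSG-only and 0 WT-only, and covered length was higher in hCG at 0 genes, in WT at 0 and in KO at 0. Region differences between hCG and PMSG turned to -2 at Star, -1 at Cyp19a1, -1 at Cyp17a1 and -1 at Hsd17b1. Log2 ratios of covered length, hCG over PMSG, turned to -0.36 at Star, -0.86 at Cyp19a1, -0.67 at Cyp17a1 and -0.81 at Fdx1. WT over KO, they turned to -0.041 at Cyp19a1, -0.93 at Cyp17a1, -0.75 at Hsd3b1 and -0.10 at Hsd17b1. The intervals at Star and Akr1c18 were in none of these lists.

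With a flank of 20 kb there were 14 hCG-only and 4 WT-only regions, and the covered length ratio at Cyp19a1 turned to -0.025 (log2, hCG over PMSG). With 100 kb there were 23 PMSG-only, 19 WT-only and 1 KO-only regions. At a −log10 q of 20 or more the difference at Akr1c18 turned to 2 regions, and where at least 50% of a region had to be covered, that at Cyp11a1 turned to 3. By covered length within 1 kb, 2 starts were larger in PMSG and 1 in WT. By fold rank in full lists 2 starts were higher in WT, and by −log10 q rank 1 was higher in KO.

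With each library left out in turn the region counts were 25 to 28 hCG-only, 17 to 18 PMSG-only, 17 to 28 WT-only and 0 to 3 KO-only. Covered length was higher in PMSG at 2 to 4 genes, in KO at 1 to 2 and in WT at 6 to 7. Starts ranked higher in WT numbered 0 to 1 and in KO 0 to 2, and those wider in WT 0 to 3 and in KO 0 to 1. Without PMSG replicate 2 the difference at Cyp11a1 turned to 1. The WT-only count was 25 without WT replicate 1, 28 without WT replicate 2, 18 without KO replicate 1 and 17 without KO replicate 2.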
